A study of Mus musculus with 4 samples.

Results

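The common gamma chain cytokine receptors are the chains through which T cells read interleukin-2, interleukin-4, interleukin-7, interleukin-9, interleukin-15 and interleukin-21. The genes followed here are Il2ra, Il2rb, Il2rg, Il4ra, Il7r, Il9r, Il15ra and Il21r. They were chosen by name, with earlier results of these data known. Every probe set whose only annotated gene symbol is one of them was used. Of these 8 genes, 7 were measured, each by 1 probe set, among 22180 genes and 23521 probe sets with a single symbol. Il2rg, which encodes the common gamma chain itself, was not analysed here.

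Arrays were hybridised with RNA of invariant natural killer T (iNKT) cells of mice, which are T cells with a semi-invariant T cell receptor (TCR) that recognises lipids on CD1d. There were 2 arrays of CD4-Vα14Tg mice, in which the CD4 promoter drives a Vα14 TCR α chain transgene, and 2 arrays of wild-type (WT) controls. The comparison asks how iNKT cell expression differs when the transgene supplies the TCR α chain. The CD4 promoter is active in other T cells and thymocytes as well as in iNKT cells. Organ, sorting gate, age, sex, strain background and pooling of animals are stated nowhere in the labels used here, so p-values measure the spread between these arrays, which may be technical. The RNA is described as taken from frozen tissue. Genes that make the TCR α chain were not checked, having no probe set of a single symbol.

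Each receptor of this family pairs a private chain with the common gamma chain, and the private chain decides which cytokine is bound. Jak1 sits on the private chain and Jak3 on the common gamma chain, and together they activate STAT factors: mainly Stat5 after interleukin-2, interleukin-7 and interleukin-15, Stat6 after interleukin-4 and Stat3 after interleukin-21. The interleukin-2 and interleukin-15 receptors share a further signalling chain, Il2rb (CD122). In iNKT cells, interleukin-15 acting through Il2rb is known for survival and maturation of the interferon-γ-producing NKT1 subset, and interleukin-7 for upkeep of the interleukin-17-producing NKT17 subset.

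Values are log2 RMA expression values, in which a difference of 1 is a doubling. Array medians lay between 5.04 and 5.07, and values under about 4.65 to 4.69, the 40th percentile of single-symbol probe sets on each array, were treated as dim. The median SD between arrays of a genotype was 0.10 in CD4-Vα14Tg and 0.098 in WT. The T cell label was borne out by its defining markers: all 6 measured genes of that list, Zbtb16, Cd3e, Cd3d, Cd3g, Lat and Cd5, lay above the 40th percentile on every array, with list means of 11.03 and 11.11 in CD4-Vα14Tg and 11.04 and 11.15 in WT. None of these 6 passed limma's test, also at an unadjusted p under 0.05, where the count was 0. Of γδ T cell, type 2 innate lymphoid, dendritic, neutrophil, and hepatocyte and stromal markers, limma called 0 of 2, 2, 1, 0 and 3 tested genes. At an unadjusted p under 0.05 there was 1 γδ T cell gene. These counts compare genotypes and do not show that such cells were absent. In the same order, 2, 2, 0, 0 and 3 genes lay above the 40th percentile on every array. Il17rb of the innate lymphoid list read 10.1 to 10.3, and Cd163l1 and Sox13 of the γδ list 7.6 to 8.4 and 7.2 to 7.6. Which cells carried this RNA, iNKT cells or others, was not tested. Levels are compared between genotypes for 1 gene at a time, since probe sets differ in response. The exception is Il7r minus Il2rb, of which only the difference between genotypes is read.

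Of the receptor genes, Il2rb was lower in CD4-Vα14Tg cells, and none was called higher. The 7 measured genes all passed the filter on dim genes, and limma, with Benjamini-Hochberg adjustment over 13602 genes, called 1 lower and 0 higher at an adjusted p under 0.05. Over all genes tested, 1.95% were called, 1.34% lower and 0.61% higher. An unadjusted p under 0.05 was reached by 3 of the 7, against 11.7% of all genes tested. The arrays of the genotypes did not overlap for 4 of the 7, against 39.1% of all genes. Both CD4-Vα14Tg arrays lay above both WT arrays in 2 genes, Il21r and Il9r, against 15.7% of all genes, and below them in 2, Il2rb and Il15ra, against 23.4%. The median difference of the 7 was 0.18, against -0.022 over all genes.

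**Figure D1:**
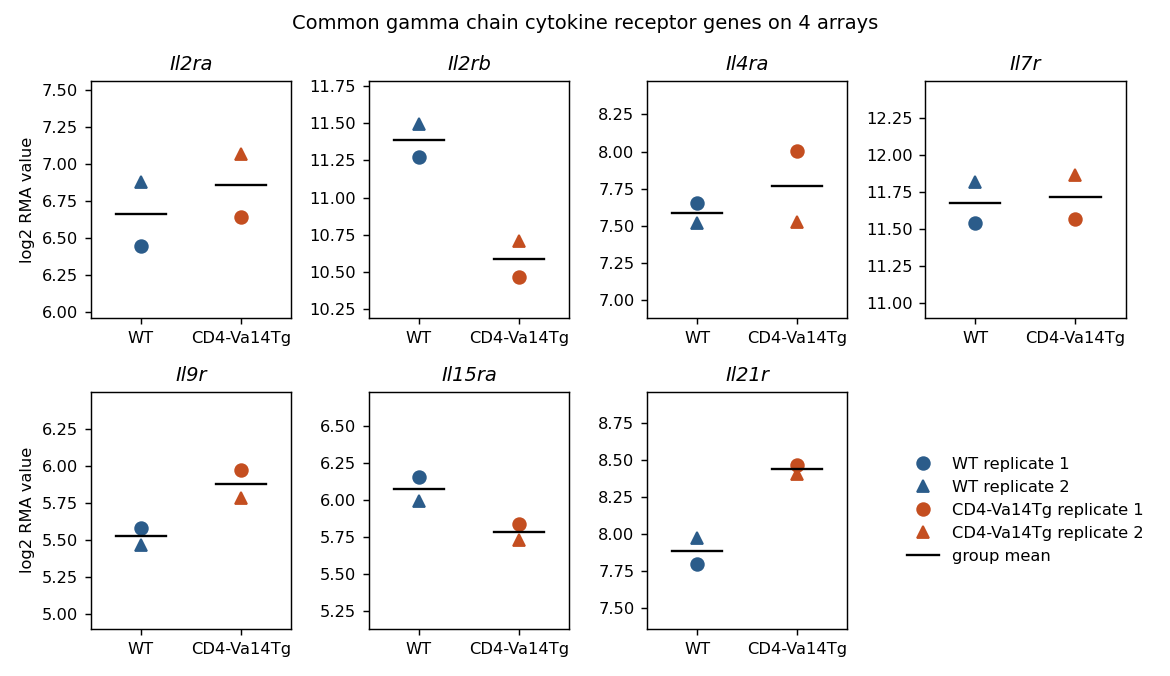
Log2 RMA values of 7 receptor genes on each array (circles, replicate 1; triangles, replicate 2) in WT and CD4-Vα14Tg iNKT cells, with bars at group means and each vertical axis spanning the same range of log2 units. The groups separate in Il2rb, Il15ra, Il9r and Il21r and overlap in Il2ra, Il4ra and Il7r.

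Starting regions of the receptor genes were read from the RefSeq promoter table of build GRCm38.p6, which held 7 of the 8 genes, all but Il2rb. The 250 bases before a start site are shown for Il7r, whose level differed least, for Il21r, which had the largest positive difference, and for its neighbour Il4ra. Capitals mark matches, on either strand, to 5 motifs of factors whose genes are described with the receptors: TTCNNNGAA for STAT factors, TGTTTAC for FOXO factors, TGTGGT for RUNX factors, GGTGTGA for T-box factors and CAGGAA for ETS factors.
Il7r, chr15:9529877-9530126, minus strand: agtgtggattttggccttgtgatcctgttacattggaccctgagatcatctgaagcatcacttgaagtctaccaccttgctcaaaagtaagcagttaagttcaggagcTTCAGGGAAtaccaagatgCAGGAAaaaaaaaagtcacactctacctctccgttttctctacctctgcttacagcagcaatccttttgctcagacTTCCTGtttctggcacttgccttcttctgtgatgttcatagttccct
Il21r, chr7:125603179-125603428, plus strand: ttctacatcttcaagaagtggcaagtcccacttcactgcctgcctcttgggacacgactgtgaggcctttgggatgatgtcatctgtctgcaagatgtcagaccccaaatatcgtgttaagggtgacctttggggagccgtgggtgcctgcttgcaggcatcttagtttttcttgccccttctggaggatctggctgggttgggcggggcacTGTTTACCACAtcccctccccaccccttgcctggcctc
Il4ra, chr7:125552021-125552270, plus strand: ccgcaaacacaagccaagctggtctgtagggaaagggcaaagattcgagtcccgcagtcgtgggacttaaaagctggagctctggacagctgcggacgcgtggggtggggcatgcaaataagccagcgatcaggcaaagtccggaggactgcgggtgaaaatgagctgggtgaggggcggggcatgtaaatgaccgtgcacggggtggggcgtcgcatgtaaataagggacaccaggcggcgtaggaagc
The Il7r window held 1 STAT match and 2 ETS matches. The Il21r window held 1 FOXO match, from 38 to 32 bases before the start. It also held 1 RUNX match on the opposite strand, from 33 to 28, so the matches share the bases at 33 and 32. The Il4ra window held no match. Over 32851 windows of the same length, 7.02% held a STAT match, 3.17% a FOXO match, 14% a RUNX match, 3.33% a T-box match and 25.7% an ETS match. These are matches of letters, not sites shown to be bound.

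The receptor chain shared by interleukin-2 and interleukin-15 was the one that fell. Il2rb read 10.47 and 10.71 on the CD4-Vα14Tg arrays and 11.28 and 11.50 on the WT arrays. Both CD4-Vα14Tg arrays lay below both WT arrays, by 0.57 or more. The mean was 10.6 ± 0.17 against 11.4 ± 0.16 (SD, n = 2 arrays each), which is 1.74-fold lower (log2 difference -0.80, 95% interval -1.14 to -0.47, limma adjusted p = 0.0427). The difference was several times the SD between arrays, and the gene stood 236th of all tested by absolute moderated t. The call was lost without any 1 array: leaving out replicate 1 or 2 of CD4-Vα14Tg gave a limma adjusted p of 0.157 or 0.0646, and leaving out replicate 1 or 2 of WT gave 0.0600 or 0.180. It was also lost with no filter on dim genes (0.0575) and with quantile normalization applied again (0.0730). The difference itself ranged from -0.92 to -0.68 over all alternatives. In RNA of bulk cells, fewer cells that carry Il2rb and less Il2rb RNA per cell cannot be told apart.

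Most markers of natural killer cells, which also carry Il2rb, were lower too. Of 4 tested, limma called 4 lower, against 1.34% of all genes tested, in a list chosen with earlier results known. Klrb1c, Klri2 and Gzma were the 3 genes of that list above the 40th percentile on every array. They differed by -1.45, -1.86 and -3.24 (limma adjusted p = 0.00326, 7.44e-04 and 0.00156). Over all alternatives these differences were -1.52 to -1.37, -1.90 to -1.82 and -3.60 to -2.88. The mean of the 5 listed genes was 5.16 and 5.29 in CD4-Vα14Tg and 6.66 and 6.68 in WT. Klrb1c, which encodes NK1.1, and Gzma, a granzyme, are also expressed by NKT1 cells. Ncr1, the NKp46 receptor, read 4.19 and 4.20 in CD4-Vα14Tg, under the 40th percentile, and 5.05 and 5.14 in WT. It passed the filter through the WT arrays alone, and its call (limma adjusted p = 0.0122) was lost when either CD4-Vα14Tg array was left out (0.0556 and 0.0540), while without either WT array it was not tested. Eomes, a T-box factor of conventional natural killer cells, lay from 4.04 to 4.40, under the 40th percentile on every array of both genotypes. Its difference of 0.19 had the opposite sign and was not tested. The part of natural killer cells in the difference of Il2rb was not tested.

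The private α chains that raise affinity for the same cytokines showed smaller differences. Il15ra, which presents interleukin-15 to cells that bear Il2rb and the common gamma chain, read 5.84 and 5.73 in CD4-Vα14Tg and 6.157 and 5.996 in WT. The groups did not overlap, and the difference of -0.29 had a 95% interval from -0.58 to 0.01 (limma adjusted p = 0.439). Il15ra lay between percentiles 58.5 and 64.0 of single-symbol probe sets. Of 6 macrophage and monocyte genes, a cell type that presents interleukin-15, only Cd68 lay above the 40th percentile on every array. Cd68 read 6.71 and 6.89 in CD4-Vα14Tg and 7.04 and 7.19 in WT, a difference of -0.32 (limma unadjusted p = 0.0435, adjusted p = 0.401). Its arrays, like those of Il15ra and of 23.4% of all genes tested, were lower in CD4-Vα14Tg without overlap. The other genes of the list were not tested, and their differences had both signs, from -0.12 (Cd14) to 0.10 (Adgre1). The list mean was 4.65 to 4.71 in CD4-Vα14Tg and 4.71 to 4.78 in WT, and its part in the difference of Il15ra was not tested.

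Il2ra (CD25), the α chain of the high-affinity interleukin-2 receptor, which regulatory T cells carry at rest, read 6.64 and 7.07 in CD4-Vα14Tg and 6.45 and 6.88 in WT. The groups overlapped: in each genotype the array numbered 2 was the higher, by 0.42 and 0.43, while the genotypes differed by 0.19 (95% interval -0.27 to 0.66, limma adjusted p = 0.841). Its difference was -0.02 when either the higher CD4-Vα14Tg array or the lower WT array was left out. Foxp3, the defining factor of regulatory T cells, lay just above the 40th percentile, at 4.71 to 5.12, and overlapped between genotypes. The mean of the 4 regulatory T cell genes was 6.63 and 6.92 in CD4-Vα14Tg and 7.02 and 7.03 in WT. Of these, Tnfrsf18 (GITR) was called lower at a limma adjusted p of 0.04996, a call lost without any 1 array (0.117 to 0.192), and their part in the level of Il2ra was not tested. Il2ra and Il15ra are neighbouring genes on chromosome 2, with no other protein-coding gene between them in the RefSeq table, and their differences had opposite signs.

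Il7r (CD127), the private chain of the interleukin-7 receptor, had nearly the same level in both genotypes. It read 11.57 and 11.87 in CD4-Vα14Tg and 11.54 and 11.82 in WT. The arrays interleaved by replicate number, with the arrays numbered 2 higher by 0.30 in CD4-Vα14Tg and 0.28 in WT. The means were 11.72 ± 0.21 and 11.68 ± 0.20 (SD, n = 2 arrays each), a difference of 0.04 (limma adjusted p = 0.980). Its 95% interval, from -0.33 to 0.41, leaves room for a change of up to 1.33-fold. The sign turned when either the higher CD4-Vα14Tg array (-0.11) or the lower WT array (-0.10) was left out.

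Il7r and Il2rb were then compared within each array. Il7r minus Il2rb was 1.10 and 1.16 on the CD4-Vα14Tg arrays and 0.26 and 0.32 on the WT arrays. The groups did not overlap, and the mean was 1.13 ± 0.04 against 0.29 ± 0.04 (SD, n = 2 arrays each). The genotypes differed by 0.84, so that the balance of the 2 signals stood 1.79-fold further toward Il7r in CD4-Vα14Tg cells. Il7r alone differed by 0.04 and Il2rb by -0.80, so this is mostly the Il2rb difference given again. An exact permutation test over arrays, two-sided, gave p = 0.333, the smallest that 2 against 2 arrays allow. The offset of either gene against the other has no meaning of its own on these arrays, and only its difference between genotypes is read here. That difference was 0.81 to 0.87 when 1 array was left out.

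**Figure D2:**
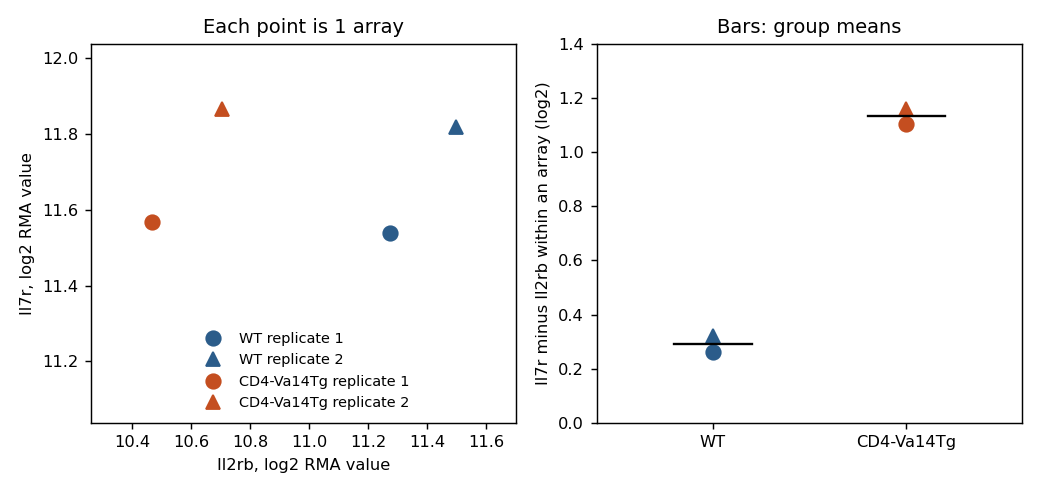
Left, log2 RMA values of Il7r against Il2rb, each point 1 array (circles, replicate 1; triangles, replicate 2). Right, Il7r minus Il2rb within each array with bars at group means of 1.13 in CD4-Vα14Tg and 0.29 in WT; the genotypes separate along Il2rb and not along Il7r.

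Il21r, the private chain of the interleukin-21 receptor, had the largest positive difference in the family. It read 8.47 and 8.41 in CD4-Vα14Tg and 7.80 and 7.97 in WT. Both CD4-Vα14Tg arrays lay above both WT arrays, with means of 8.44 ± 0.04 against 7.88 ± 0.12 (SD, n = 2 arrays each). The difference of 0.56, or 1.47-fold, had a 95% interval from 0.26 to 0.85 and did not pass after adjustment (unadjusted p = 0.00270, limma adjusted p = 0.0894). Leaving out any 1 array gave differences of 0.47 to 0.64 and limma adjusted p from 0.171 to 0.327.

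Il4ra, the interleukin-4 receptor α chain, which also pairs with Il13ra1 for interleukin-13, read 8.01 and 7.52 in CD4-Vα14Tg and 7.65 and 7.52 in WT. CD4-Vα14Tg replicate 1 stood apart from the other 3 arrays. The difference of 0.18 (95% interval -0.23 to 0.59, limma adjusted p = 0.828) became -0.06 without that array. Il4ra and Il21r are neighbouring genes on chromosome 7.

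B cells carry both Il4ra and Il21r, and their markers were mostly at background. Ms4a1 (CD20) lay from 3.17 to 3.39 and Pax5 from 4.05 to 4.64. Of 5 measured B cell genes, only Cd79b lay above the 40th percentile on every array, at 5.50 and 5.43 in CD4-Vα14Tg and 5.04 and 4.94 in WT (difference 0.48, limma adjusted p = 0.124). The list mean was 4.31 and 4.40 in CD4-Vα14Tg and 4.03 and 4.39 in WT. The part of B cells in the difference of Il21r was not tested.

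Il9r, the private chain of the interleukin-9 receptor, known for its role in mast cells and some T cells, lay between percentiles 55.2 and 62.0. It read 5.97 and 5.78 in CD4-Vα14Tg and 5.58 and 5.47 in WT. The groups did not overlap, and the difference of 0.35 (95% interval 0.05 to 0.65) did not pass (unadjusted p = 0.0279, limma adjusted p = 0.321). Of 4 mast cell genes, Cpa3, Mcpt4 and Fcer1a were dim in both genotypes, and Kit read 5.07 and 5.10 against 4.78 and 4.86. The mast cell list mean was 3.55 and 3.64 in CD4-Vα14Tg and 3.48 and 3.54 in WT, and its part in the difference of Il9r was not tested.

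**Figure D3:**
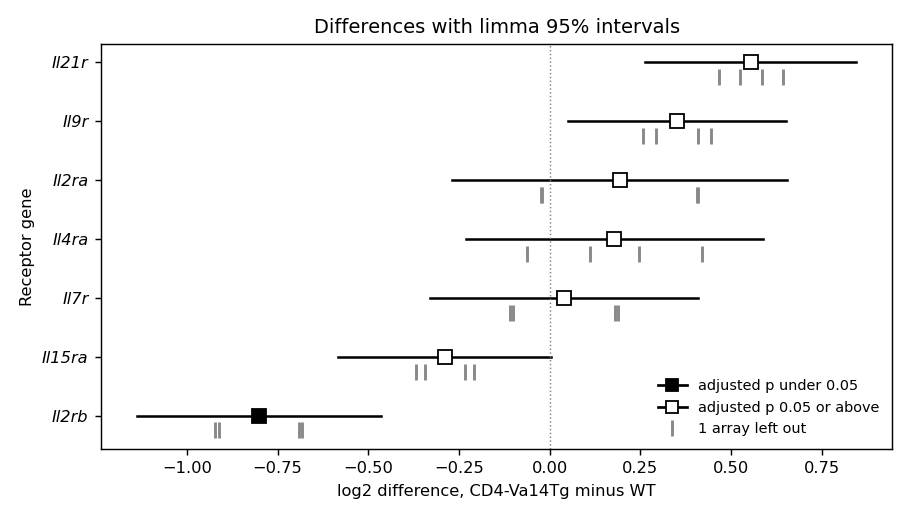
Log2 differences of 7 receptor genes, CD4-Vα14Tg minus WT, as squares with limma 95% intervals (filled, adjusted p under 0.05; open, 0.05 or above); grey ticks show the difference with 1 array left out. Only the Il2rb square is filled, at -0.80, and the ticks of Il2ra, Il4ra and Il7r fall on both sides of 0.

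The cytokines themselves were mostly dim in these cells. Of the 6 genes, Il2, Il7, Il9 and Il15 lay below the filter, reading from 3.14 to 4.26. Il4, a product of iNKT cells themselves, read 8.10 and 8.17 in CD4-Vα14Tg and 8.44 and 8.95 in WT, a difference of -0.56 (limma adjusted p = 0.234). Il21 differed by 0.04 (limma adjusted p = 0.985). Limma called 0 of the 2 tested, with 1 at an unadjusted p under 0.05. Among receptor partners outside the family, 0 of 1 tested was called: Crlf2, which pairs with Il7r to bind thymic stromal lymphopoietin, differed by -0.37 (unadjusted p = 0.0340, limma adjusted p = 0.354), while Il13ra1, Il13ra2 and Tslp were dim.

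The kinases and factors next to the receptors showed no call. No gene with an absolute difference under 0.636 was called, so the lack of a call does not show equal levels. The lists here and below were chosen with earlier results of these data known. Their shares beside those of all genes are a description, not a test. Limma called 0 of 7 tested JAK and STAT genes, with 1 higher and 1 lower at an unadjusted p under 0.05, and the list median was -0.05 against -0.022 over all genes. Stat5b, one of the pair of Stat5 genes, differed by 0.38 (8.93 and 8.99 against 8.53 and 8.63, limma adjusted p = 0.225), and Stat5a by 0.26 (limma adjusted p = 0.619). Tyk2 and Jak2, kinases used by other cytokine receptors, differed by -0.36 and -0.24 (limma adjusted p = 0.344 and 0.638). Jak3 was not analysed here. Of 11 tested adaptor, PI3K and MAPK genes, limma called 0, with 1 at an unadjusted p under 0.05, and the median was -0.002. Ptk2b, Pik3cd, Grb2 and Akt1 differed by -0.40, -0.28, 0.20 and 0.19 (limma adjusted p from 0.275 to 0.651).

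Negative regulators of the pathway had mostly negative differences, none past the test under the settings used for the other lists. Of 10 tested, limma called 0, while 4 were lower at an unadjusted p under 0.05, 9 had a negative difference against 56% of all genes, and 6 had both CD4-Vα14Tg arrays below both WT arrays, against the 23.4% of all genes. The median was -0.30. Socs2, an inhibitor that Stat5 induces, read 6.02 and 5.78 in CD4-Vα14Tg and 6.59 and 7.09 in WT. Its difference of -0.94 (95% interval -1.37 to -0.51, limma adjusted p = 0.0586) lay close to the threshold. By limma adjusted p, it passed with the 60th percentile filter (0.0398), quantile normalization again (0.0472) and a trended and robust variance model (0.04996). It also passed with the replicate number as a block (0.0181). It did not pass with no filter (0.0825) or median centring (0.0566), and was -0.55 when its probe sets were averaged (0.123). With 1 array left out, the difference of Socs2 ranged from -1.19 to -0.69. Cish and Socs1, feedback inhibitors of the same kind, differed by -0.60 and -0.49 (limma adjusted p = 0.214 and 0.143), and the phosphatase Ptpn6 by -0.40 (limma adjusted p = 0.236).

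Of 17 genes that Stat5 can induce, 2 fell and 0 rose, and 15 did not pass. Over all genes tested, 1.34% were called lower. The 2 were Gzmb and Prf1, granzyme B and perforin, which are proteins of cytotoxic granules. Prf1 read 6.20 and 6.29 in CD4-Vα14Tg and 7.16 and 7.56 in WT, a difference of -1.11 (limma adjusted p = 0.0174), and Gzmb differed by -2.82 (limma adjusted p = 4.09e-04). Prf1 did not pass, leaving a count of 1, when either CD4-Vα14Tg array or WT replicate 2 was left out. The list median was -0.27 against -0.022 over all genes, and 14 of the 17 had a negative difference. The 3 positive ones were Osm, Tnfrsf4 and Id2, at 0.09, 0.07 and 0.02. Bcl2, the survival gene, read 8.57 and 9.02 against 9.27 and 9.86, and its difference of -0.77 missed the threshold (limma adjusted p = 0.191). Pim2, a survival kinase, differed by -0.41 (limma adjusted p = 0.171), and Myc by -0.44 (limma adjusted p = 0.441); these 3 were chosen for mention after their values were seen. The list shares Socs1, Socs2 and Cish with the negative regulators. The part of Stat5, or of natural killer and NKT1 cells, in the differences of this list was not tested.

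**Figure D4:**
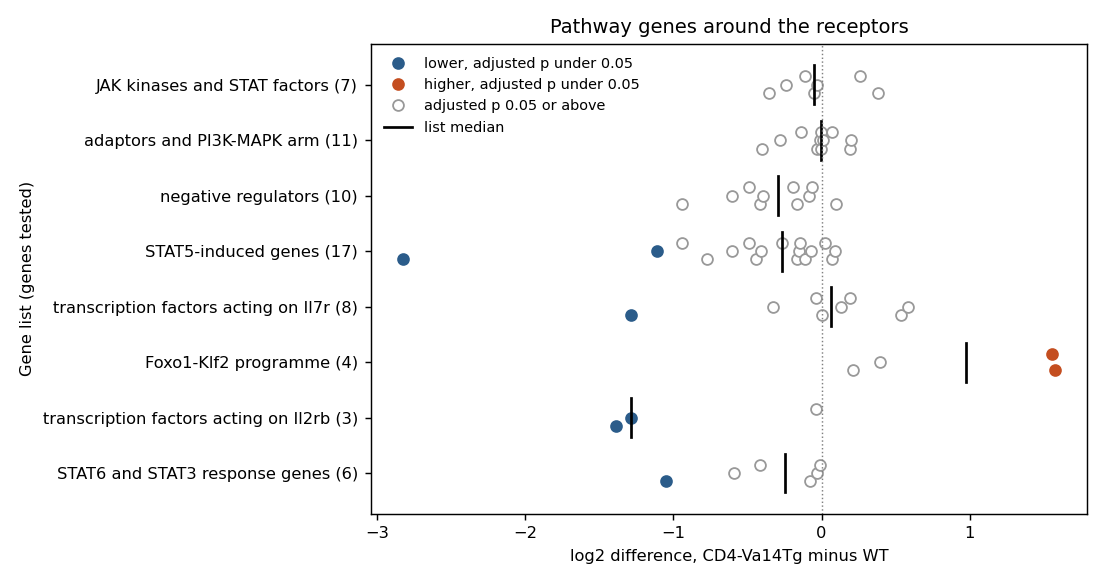
Log2 differences, CD4-Vα14Tg minus WT, of tested genes in 8 lists, each point 1 gene and each bar the list median; blue and orange points passed limma's test as lower or higher, open points did not. The called genes are Gzmb and Prf1, Runx3 (in 2 lists), S1pr1 and Ccr7, Tbx21, and Maf, while the JAK, STAT, adaptor and negative regulator lists hold no called gene.

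Of 3 tested transcription factors known to act on Il2rb, 2 fell and 0 rose, against 1.34% and 0.61% of all genes tested. This list was chosen with earlier results of these data known, so that comparison is a description. The median of the 3 factors was -1.28. Tbx21, the gene of T-bet, read 7.41 and 7.79 in CD4-Vα14Tg and 9.07 and 8.91 in WT, a difference of -1.39 (limma adjusted p = 0.00819). Runx3 read 6.95 and 7.39 against 8.37 and 8.54, a difference of -1.28 (limma adjusted p = 0.0130). Both calls held when any 1 array was left out. Ets1 differed by -0.04 (95% interval -0.31 to 0.23, limma adjusted p = 0.969). The part of these factors in the difference of Il2rb was not tested.

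Factors known to act on Il7r had differences of both signs. Runx3, also in the list for Il2rb, was the 1 gene to fall among 8 tested, against 1.34% of all genes, and 0 rose. At an unadjusted p under 0.05, 2 were higher, and the median was 0.07. Foxo1, an activator of Il7r, read 9.26 and 9.42 in CD4-Vα14Tg and 8.79 and 8.72 in WT, a difference of 0.58 (limma adjusted p = 0.0721). It passed with a trended and robust variance model (0.0483) and was 0.24 when its probe sets were averaged (0.486). Runx1 read 9.43 and 9.36 against 8.81 and 8.90, a difference of 0.53 (limma adjusted p = 0.0849). Both genes were higher in CD4-Vα14Tg without overlap, as were 2 of the 8 in all, against 15.7% of all genes tested. The arrays of Il7r overlapped. Over all alternatives the difference was 0.24 to 0.66 for Foxo1 and 0.49 to 0.58 for Runx1.

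Other genes of the Foxo1 and Klf2 programme of lymphocyte recirculation did differ. Of 4 tested, S1pr1 and Ccr7, receptors for tissue egress and lymph node entry, rose by 1.57 and 1.55 (limma adjusted p = 0.00833 and 0.00281), and 0 fell. Over all genes tested, 0.61% were called higher. Klf3 and Klf2 differed by 0.40 and 0.21 (limma adjusted p = 0.504 and 0.910). Naive T cells express this programme together with Il7r. Of the 5 measured genes of the naive and CD8 T cell list, Ccr7 and Lef1 rose, and its mean was 6.89 and 6.96 against 6.32 and 6.42. Ccr7 is in both lists, so its rise is the same result given again. Lef1 did not pass when any 1 array was left out (limma adjusted p from 0.0502 to 0.0747). Of the CD8 genes, Cd8a was dim on every array, from 4.38 to 4.60, and Cd8b1 lay above the 40th percentile, at 5.24 and 5.52 in CD4-Vα14Tg and 5.40 and 5.52 in WT. The part of naive T cells in these differences was not tested.

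Response genes of the factors behind interleukin-4 and interleukin-21 gave 1 fall among 6 tested and 0 rises, against 1.34% and 0.61% of all genes. Their median was -0.25, against -0.022 over all genes. Maf, a factor that interleukin-21 can induce, read 8.23 and 8.46 in CD4-Vα14Tg and 9.26 and 9.54 in WT. Its difference was -1.05 (limma adjusted p = 0.0172), a call lost when CD4-Vα14Tg replicate 1 or WT replicate 2 was left out (limma adjusted p up to 0.0730). Prdm1, the gene of Blimp-1, read 5.62 and 5.60 against 6.20 and 6.20, a difference of -0.59 (limma adjusted p = 0.0547). Socs3 and Batf differed by -0.41 and -0.08 (limma adjusted p = 0.546 and 0.925).

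Genes whose pattern over the 4 arrays was most like that of Il2rb were found by the root-mean-square distance of values after each gene's mean was subtracted. The 3 nearest were Gm1966, Efhd2 and Pglyrp1, at 0.031, 0.034 and 0.038 log2 units. Gm1966 differed between genotypes by -0.81 (limma adjusted p = 0.0529), Efhd2 by -0.76 (limma adjusted p = 0.0391) and Pglyrp1, a peptidoglycan recognition protein, by -0.74 (limma adjusted p = 0.0493). In each of them, as in Il2rb, replicate 2 read above replicate 1 in both genotypes. With 4 arrays, many patterns are alike, and no correlation is given.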

How the data were processed

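RNA of iNKT cells was profiled on 4 Affymetrix whole-transcript arrays, 2 per genotype, grouped by sample title. Per the submitters' processing notes, RMA and Affymetrix Power Tools were used; no label gives versions, options or genome build. The authors' deposited values are log2 values, as their range shows. Names of probe sets came from the platform annotation (23521 with 1 symbol, 1814 with several, 16010 with none). The probe set of highest mean stood for each gene, and genes at or above the 40th percentile on at least 2 of 4 arrays were tested (13602 genes). The genotypes were tested with limma 3.58.1 under R 4.3.3 (lmFit, eBayes, two-sided, Benjamini-Hochberg over all genes tested, threshold 0.05), a pipeline tested on simulated data. Tables and plots used Python 3.11.15 and matplotlib 3.10.9.

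The named genes are the 8 receptor genes, of each list those called plus those of largest absolute moderated t up to 4, and the 3 nearest genes to each called receptor. Members and lists were chosen with earlier results of these data known. Alternatives were other filters, averaged probe sets, renormalization, median centring, another variance model, the replicate number as a block, and leaving out each array. The number of arrays limits the precision.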

Additional observations from a re-analysis of the deposited data

How the results depend on the processing

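Over 11 alternatives, the difference of Il2rb stayed negative and that of Il21r positive, with ranges of -0.92 to -0.68 and 0.47 to 0.64. The count of receptor genes lower was 0 with no filter, 0 with quantile normalization again and 0 with any 1 array left out, by limma, where 1 or 2 were lower at an unadjusted p under 0.05. Leaving out 1 array gave 48 to 74 genes higher (83 with all arrays) and 89 to 134 lower (182 with all arrays), and turned the sign of Il2ra (-0.0235 to 0.41), Il4ra (-0.062 to 0.42) and Il7r (-0.11 to 0.19). Counts of called genes in the pathway lists were followed under the same alternatives, a choice made after seeing the data. The 5 counts above 0 stayed within 1.5 times in 47 cases and moved further in 8, and counts of 0 became 1 or more in 7. Marker lists of other cells were not counted this way.

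Labels do not say that a replicate number marks a shared animal, litter or day. Deviations of the arrays numbered 1 from their group means correlated at 0.26 over 13602 genes. With 2 arrays per genotype, the arrays numbered 2 mirror these deviations and add no further evidence. With the replicate number as a block, 252 genes were higher and 422 lower, 1 receptor gene was called higher (Il21r, limma adjusted p = 0.0385), 1 lower (Il2rb, limma adjusted p = 0.00565), 4 genes of the Stat5-induced list lower, and Foxo1 and Runx1 higher (limma adjusted p = 0.0313 and 0.0394) and Socs2 lower (0.0181). The block takes a further term from the same 4 arrays, so each gene's own spread is estimated from less and limma leans more on the spread of all genes. Its larger counts are read with that limit. Il9r did not pass the 60th percentile filter.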

Other observations

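The receptor genes differed between replicates in much the same way in both genotypes. Replicate 2 minus replicate 1 was 0.42 in CD4-Vα14Tg and 0.43 in WT for Il2ra, 0.30 and 0.28 for Il7r, and 0.24 and 0.22 for Il2rb. It was negative in both genotypes for Il4ra (-0.48 and -0.14), Il9r (-0.19 and -0.11) and Il15ra (-0.11 and -0.16). Il21r was the exception, at -0.06 and 0.18. The sign was the same in both genotypes for 6 of 7 receptor genes, against 57.2% of all tested genes. For Il2ra and Il7r this shift was larger than the difference between genotypes, 0.19 and 0.04. For Il2rb, the difference between genotypes was -0.81 among arrays numbered 1 and -0.79 among arrays numbered 2.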
